A study of Mus musculus with 36 samples.

Results

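The pericellular and basement membrane collagens described here are 9 genes of the 23071 named genes in the RNA count tables. They are the 3 main chains of collagen VI (Col6a1, Col6a2 and Col6a3), the pair of widespread collagen IV chains (Col4a1 and Col4a2), both collagen VIII chains (Col8a1 and Col8a2), and the core proteins of collagen XV (Col15a1) and collagen XVIII (Col18a1). The genes were chosen by name, and each was read from the RefSeq transcript row with the highest mean count over the 12 RNA libraries. The same genes, with 5 kb on either side, held 995 of the 1444973 cytosines compared for methylation at 4 weeks and 915 of 1273121 at 12 weeks.

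Collagen VI forms the beaded filaments of the pericellular matrix, the thin coat that surrounds each chondrocyte and passes load from the cartilage to the cell. Its 3 chains assemble into 1 triple helix inside the cell before secretion. Collagen IV forms the network of basement membranes, the sheets under endothelium and around muscle fibres and fat cells, and its chains are also found in the pericellular matrix of cartilage. Collagen VIII is a short-chain network former of vessel walls and Descemet's membrane. Collagens XV and XVIII are themselves proteoglycans of basement membrane zones, and collagen XVIII is the source of endostatin.

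Articular cartilage came from male C57BL/6J mice that underwent destabilization of the medial meniscus (DMM) in the right knee at 12 weeks of age, a surgical model of post-traumatic osteoarthritis (OA). The left knees were not operated and served as controls, so control tissue came from animals that had also undergone surgery. Limbs were collected at 4 and at 12 weeks from surgery. Each limb and time point gave 3 libraries for RNA sequencing and 3 for reduced representation oxidative bisulfite sequencing, in which an oxidized aliquot (oxBS) reads 5-methylcytosine (5mC) and a mock-oxidized aliquot (BS) reads 5mC plus 5-hydroxymethylcytosine (5hmC). Each library pooled microdissected cartilage of 3 knees, and RNA and DNA came from different mice. Both limbs came from the same mice without a stated match of pools. The p-values of RNA levels, ratios and locus means measure the spread between these pools. Those of single cytosines rest on reads pooled per limb and do not measure that spread.

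The 12 RNA libraries held 27706547 to 62737656 counts on transcripts, and the oxBS libraries had median coverages of 22 to 102 reads at 4 weeks and 28 to 72 reads at 12 weeks. The chondrocyte markers were present in every library, with a summed level of 6210 to 27100 CPM (counts scaled to library size). Markers of other tissues were present as well: 12 skeletal muscle genes summed to between 97 and 23100 CPM, and all 12 were lower in all 3 DMM libraries at 4 weeks, against 10.3% of all genes, with a median of -2.50 on the log2 scale. Of these, the fast myosin gene Myh1 passed the edgeR test, at -3.80 (SE 0.45, adjusted p = 0.0491), and its adjusted p ranged from 0.00463 to 0.254 when 1 library was left out. The median log2 fold change of the 9 fibroblast and synovium markers was 1.12 at the earlier time point and 1.34 at the later one, and 6 of them were higher without overlap at each, against 10.8% and 9.92% of all genes. Of the rest, Pi16 was lower without overlap at 4 weeks (-0.44, SE 0.19) and at -0.24 (SE 0.20) at 12 weeks, and Col1a1 was at 0.05 (SE 0.49) and -0.09 (SE 0.31). Their summed level was 2320 to 4290 CPM in control and 4430 to 6980 CPM in DMM libraries at 4 weeks, and 4170 to 8500 against 5940 to 8410 CPM at 12 weeks. In bulk tissue, a change in the share of a cell type and a change in RNA per cell cannot be told apart. The part of these markers in the collagen results was not tested.

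The sequences below carry the methylation results, and CpG dinucleotides, the positions read by the assay, are in capitals. The Col6a3 stretch lies at chr1:90833354-90833464 inside an intron, and its 6 CpGs form the only region at these genes that differed between limbs. The Col6a1 stretch lies at chr10:76729967-76730213, upstream of the gene, which runs leftward, and it ends with a pair of called cytosines. The Col15a1 stretch at chr4:47267532-47267592 and the Col4a1 stretch at chr8:11283459-11283519 are both intronic and each has a called cytosine at its centre. All were read from the plus strand of GRCm38.p6, the mm10 assembly that the deposited positions use.
Col6a3 intron: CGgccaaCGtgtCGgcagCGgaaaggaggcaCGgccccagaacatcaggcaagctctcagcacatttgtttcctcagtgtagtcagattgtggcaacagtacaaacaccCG
Col6a1 upstream: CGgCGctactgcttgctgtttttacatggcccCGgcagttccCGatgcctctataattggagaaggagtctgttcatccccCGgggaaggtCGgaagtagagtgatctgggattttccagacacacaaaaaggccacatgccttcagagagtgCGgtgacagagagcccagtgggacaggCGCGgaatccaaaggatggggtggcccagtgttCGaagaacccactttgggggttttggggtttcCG
Col15a1 intron: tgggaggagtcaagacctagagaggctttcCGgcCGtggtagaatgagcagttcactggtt
Col4a1 intron: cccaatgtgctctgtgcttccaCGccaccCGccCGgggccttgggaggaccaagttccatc

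The promoters of these genes differed widely in CpG content. Below are RefSeq windows, 250 bases before to 50 after a start, again with CpGs in capitals. They belong to Col4a2, which shares a promoter with Col4a1, and to the 2 starts of Col18a1. Col4a1 and Col4a2 run in opposite directions on chromosome 8, and their annotated ends overlapped by 85 bp. The Col4a2 window at chr8:11312555-11312854 on the plus strand, the one printed, held 33 CpGs. The Col4a1 window, at chr8:11312777-11313076 on the minus strand, overlaps it only in part and is not printed. The upstream start of Col18a1, at chr10:77166481-77166780 on the minus strand, held 16, whereas the internal start, at chr10:77113656-77113955 on the same strand, held 6.
Col4a2 and Col4a1 shared promoter: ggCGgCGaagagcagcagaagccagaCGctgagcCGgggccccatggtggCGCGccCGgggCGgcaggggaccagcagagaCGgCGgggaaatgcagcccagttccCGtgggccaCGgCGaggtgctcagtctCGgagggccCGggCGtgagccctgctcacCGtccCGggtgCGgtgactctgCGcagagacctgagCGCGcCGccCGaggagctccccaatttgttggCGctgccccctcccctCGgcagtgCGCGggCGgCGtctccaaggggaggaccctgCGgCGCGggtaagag
Col18a1 upstream start: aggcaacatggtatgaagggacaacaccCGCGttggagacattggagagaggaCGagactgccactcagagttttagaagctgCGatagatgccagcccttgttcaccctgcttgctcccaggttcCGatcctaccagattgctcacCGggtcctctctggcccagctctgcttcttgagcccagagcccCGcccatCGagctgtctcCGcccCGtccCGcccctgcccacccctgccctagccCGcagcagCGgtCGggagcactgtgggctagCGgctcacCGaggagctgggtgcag
Col18a1 internal start: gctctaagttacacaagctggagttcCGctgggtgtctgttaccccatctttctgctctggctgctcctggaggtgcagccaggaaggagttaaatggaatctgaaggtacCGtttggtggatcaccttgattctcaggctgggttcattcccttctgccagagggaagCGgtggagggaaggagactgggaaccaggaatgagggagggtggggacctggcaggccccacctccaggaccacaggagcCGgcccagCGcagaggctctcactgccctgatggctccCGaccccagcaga

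Per transcript length, Col6a1 and Col6a2 were the most abundant of these genes in cartilage. Such levels take coverage to be even over transcripts of unlike length, which was not tested. Over the 12 RNA libraries, Col6a1 (NM_009933, chr10:76708792-76726044) had a mean level of 107 RPKM (reads scaled to transcript length and library size), and Col6a2 (NM_146007, chr10:76595756-76623630) 63.5 RPKM. Col8a2 (NM_199473) followed with 14.1 RPKM, Col6a3 (NM_001243008, chr1:90766860-90844001) with 9.08 and Col4a1 (NM_009931) with 8.08. Col8a1 (NM_007739) was at 5.72 RPKM and Col4a2 (NM_009932) at 5.07, and Col18a1 (NM_001109991) and Col15a1 (NM_009928) were lowest, at 2.09 and 1.79 RPKM. Neighbours in this order overlapped over libraries, for example Col18a1, at 0.883 to 3.54 RPKM, and Col15a1, at 0.539 to 3.90 RPKM. Col6a2 and Col6a1 lie side by side on chromosome 10 with 85.2 kb between them, and Col18a1 lies a further 326.1 kb on.

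Col6a3 and Col18a1 each had 2 rows in the count table, for transcripts that share most exons, and the rows of each gene had nearly the same mean count (4023.2 and 3914.1 for Col6a3, 485.6 and 483.2 for Col18a1). Reads of such transcripts cannot be assigned to one of them, so the rows give the level of the gene rather than of an isoform. The Col18a1 row used belongs to the transcript that begins at the internal start.

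To learn whether these collagens differed between OA and control cartilage, DMM and control libraries were compared within each time point by edgeR's quasi-likelihood test over all transcripts. At 4 weeks, the median over the 9 genes was 0.18 on the log2 scale, against -0.03 for all transcripts tested, and 8 of the 9 were above 0, as were 47.5% of all transcripts. None passed an adjusted p of 0.05, where 0.0757% of all transcripts did. A single gene, Col6a3, had an unadjusted p under 0.05, against 13.7% of all transcripts and 6.11% in the higher direction. The libraries of DMM and control limbs did not overlap in 2 of the 9 genes, Col6a3 and Col18a1, both higher in DMM, against 10.8% of all genes in that direction. None was lower without overlap, against 10.3% of all genes.

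**Figure D1:**
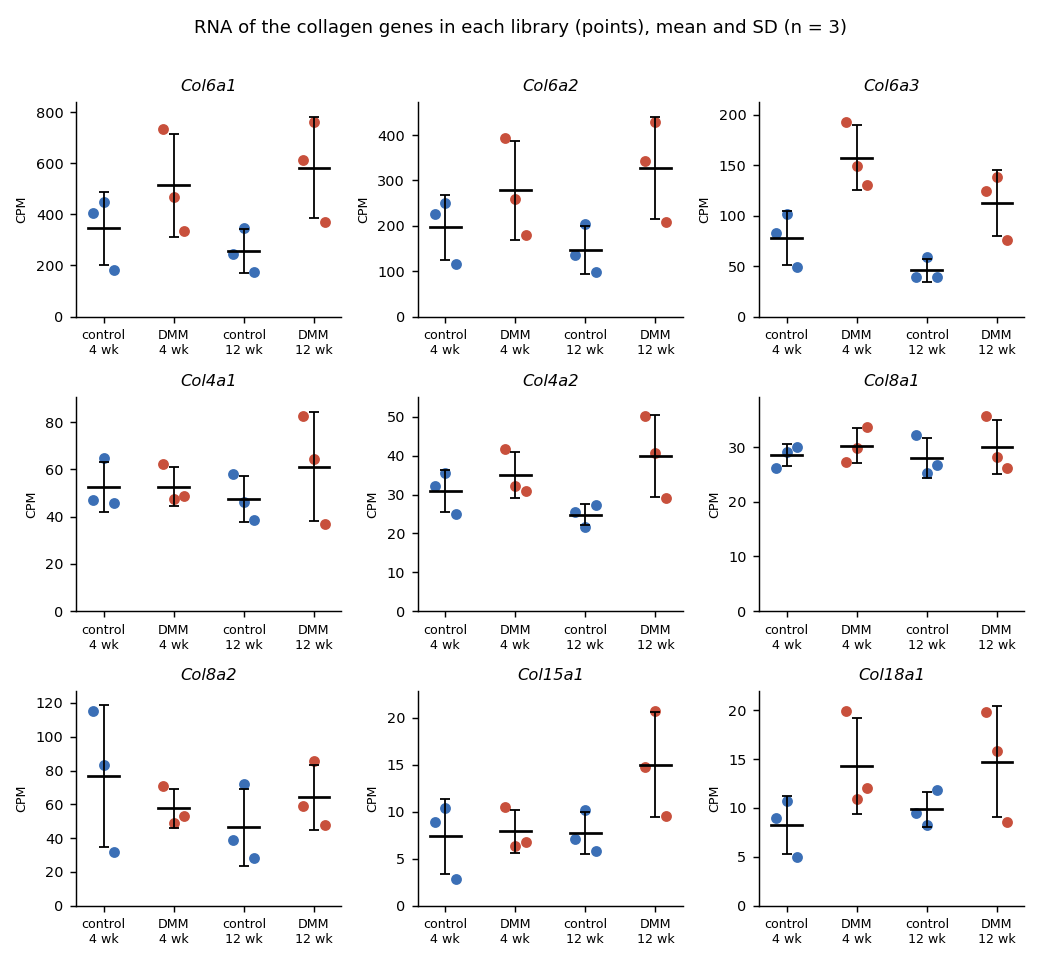
RNA level of each collagen gene in CPM (vertical axis, from 0) in the 3 control (blue) and 3 DMM (red) libraries at 4 and 12 weeks, with the mean (horizontal line) and SD. The collagen VI panels show DMM libraries above control libraries at 12 weeks, while Col8a1 stayed between 25.2 and 35.7 CPM in all libraries.

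Col6a3, the longest of the 3 collagen VI chains, was at 82.9, 101 and 49.0 CPM in the control libraries at 4 weeks and at 193, 149 and 131 CPM in the DMM libraries. The limbs did not overlap, and edgeR estimated a log2 fold change of 1.02 (SE 0.29) with an adjusted p of 0.266. DESeq2, which called 3.44% of all transcripts and 1.32% as higher, gave the same fold change and an adjusted p of 0.044, so the call at 4 weeks depended on the tool. The adjusted p ranged from 0.044 to 0.834 over all alternatives.

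Its partner chains at 4 weeks overlapped between limbs. Col6a1 was at 405, 448 and 182 CPM in control and at 735, 468 and 337 CPM in DMM libraries, a log2 fold change of 0.58 (SE 0.41, edgeR adjusted p = 0.495). Col6a2 followed the same order of libraries, with a log2 fold change of 0.51 (SE 0.38, edgeR adjusted p = 0.515). Control replicate 3 was the lowest control library for all 3 chains, and it was also the lowest for Col4a1, Col4a2, Col8a2, Col15a1 and Col18a1.

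Col18a1, the source of endostatin, was at 9.00, 10.8 and 4.97 CPM in control and at 19.9, 10.9 and 12.1 CPM in DMM libraries at 4 weeks. The limbs did not overlap, but the highest control library and the lowest DMM library differed by little, and the log2 fold change of 0.80 (SE 0.35) had an edgeR adjusted p of 0.366. The estimates of Col4a1, Col4a2, Col8a1 and Col15a1 lay between 0.01 and 0.18, and that of Col8a2 was -0.41 (SE 0.41). All of these overlapped between limbs.

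At 12 weeks, all 9 genes had estimates above 0, and their median was 0.70 on the log2 scale, against 0.01 for all transcripts, of which 51.5% were above 0. By edgeR none passed an adjusted p of 0.05, where 0.00476% of all transcripts, a single one, did. An unadjusted p under 0.05 was reached by 5 of the 9, all higher, against 16.3% of all transcripts and 8.94% in the higher direction, and the libraries of 4 of the 9 did not overlap and were higher in DMM, against 9.92% of all genes, while none was lower without overlap, against 8.43%. These 4 were the 3 collagen VI chains and Col4a2.

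Col6a1 was at 245, 346 and 176 CPM in the control libraries at 12 weeks and at 613, 763 and 372 CPM in the DMM libraries. Its log2 fold change was 1.20 (SE 0.32), with an edgeR adjusted p of 0.215. Col6a2 was at 136, 203 and 98.6 CPM in control and at 344, 430 and 208 CPM in DMM libraries, with a log2 fold change of 1.17 (SE 0.33, edgeR adjusted p = 0.224). In both genes the lowest DMM library, replicate 3, was close to the highest control library, replicate 2.

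Col6a3 showed the largest estimate of the 9 genes at 12 weeks, with a log2 fold change of 1.31 (SE 0.26, edgeR adjusted p = 0.150). It was at 39.5, 58.6 and 39.1 CPM in control and at 125, 138 and 75.5 CPM in DMM libraries, and its lowest DMM library stood further above the highest control library, as a ratio, than in its partners. DESeq2 called all 3 collagen VI chains, with adjusted p of 0.0094 for Col6a1, 0.0158 for Col6a2 and 0.000287 for Col6a3, in a table in which it called 4.02% of all transcripts and 2.58% as higher. By edgeR, Col6a3 passed at 12 weeks without control replicate 2 (log2 fold change 1.49, adjusted p = 0.0341), when 4.04% of all transcripts were called, and without DMM replicate 3 (1.53, adjusted p = 0.0392), when 0.481% were, and its adjusted p ranged from 0.000287 to 0.672 over all alternatives.

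**Figure D2:**
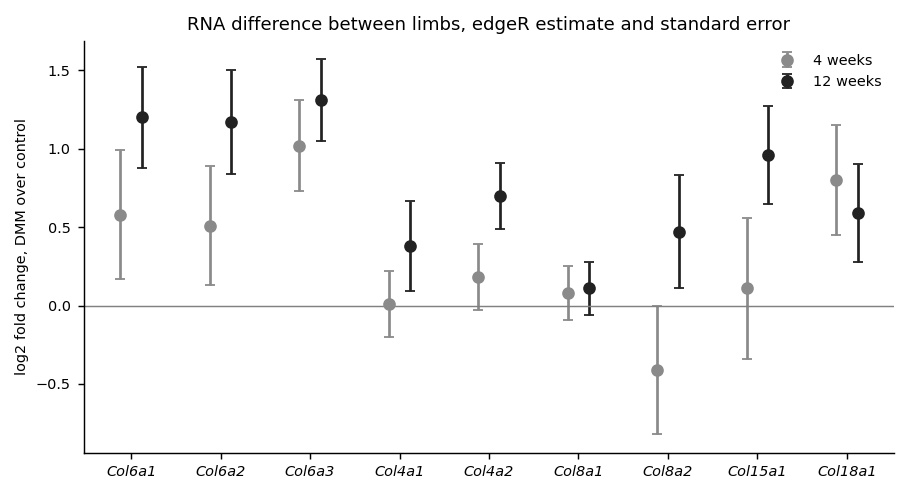
Log2 fold change of DMM over control (vertical axis, log2 scale) with its standard error from edgeR for each gene at 4 weeks (grey) and 12 weeks (black), 3 libraries per limb. The estimates at 12 weeks lay above 0 for all 9 genes, from 0.11 for Col8a1 to 1.31 for Col6a3.

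The collagen IV chains, which assemble with each other, were examined together at 12 weeks. Col4a2 was at 25.6, 21.8 and 27.2 CPM in control and at 50.2, 40.7 and 29.1 CPM in DMM libraries, a log2 fold change of 0.70 (SE 0.21, edgeR adjusted p = 0.244). Col4a1 was at 57.8, 46.3 and 38.5 CPM in control and at 82.5, 64.3 and 36.7 CPM in DMM libraries, which overlapped, with a log2 fold change of 0.38 (SE 0.29, edgeR adjusted p = 0.521). The ratio of Col4a2 to Col4a1 per length did not separate the limbs (exact two-sided permutation p = 0.3, log2 difference 0.35, 3 against 3 libraries), and the smallest p that 3 against 3 allows is 0.1.

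Col15a1 was at 7.09, 10.2 and 5.87 CPM in control libraries at 12 weeks and at 14.7, 20.7 and 9.55 CPM in DMM libraries. The limbs overlapped through 1 library of each, and the log2 fold change was 0.96 (SE 0.31, edgeR adjusted p = 0.253). Col18a1 (0.59, SE 0.31) and Col8a2 (0.47, SE 0.36) also overlapped between limbs. Col8a1 was the flattest of the 9 genes, with a log2 fold change of 0.11 (SE 0.17) and a range of only 1.42-fold from its lowest to its highest library over both limbs and time points, whereas Col15a1 spanned 7.24-fold.

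The change of the DMM effect between time points was tested as the interaction of limb and week. No gene of the 9 passed, nor did any other transcript (0%), with adjusted p of 0.455 or higher by edgeR, and none of the 9 had an unadjusted p under 0.05, against 12.3% of all transcripts. DESeq2 called 0.0613% of all transcripts and none of the 9. Of the 9 interaction estimates, 8 were above 0, as were 51.9% of all transcripts. The largest were those of Col8a2 (0.88, SE 0.61) and Col15a1 (0.85, SE 0.60), each less than 2 standard errors.

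Control limbs of 12 weeks were also compared with those of 4 weeks, which share the control libraries of the comparisons above. By edgeR no collagen passed an adjusted p of 0.05, nor did any other transcript (0%), although 21.2% had an unadjusted p under 0.05. The estimates of 2 of the 9 genes were above 0, against 48.5% of all transcripts. Among the 9 genes only Col6a3 had such a p (log2 fold change -0.78, SE 0.30, adjusted p = 0.200), and it was called as lower once control replicate 3 of 4 weeks was left out (-1.02, adjusted p = 0.0323), when 18.3% of all transcripts were called. DESeq2 called 11.7% of all transcripts in this comparison and none of the 9 genes. Age, time since surgery on the other knee and any difference in collection or library preparation go together here and cannot be told apart.

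Because the collagen VI chains form 1 molecule, the ratios of their RNA per transcript length were examined in each library. Scaling by length takes coverage to be even over the transcript (3976 nt for Col6a1 and 10841 nt for Col6a3), which was not tested. The ratios therefore compare libraries and do not give the proportions of the chains. Col6a2 stood at 0.569 to 0.673 of Col6a1 per length in all 12 libraries, although both genes varied more than 4-fold. At 12 weeks the ratio was 0.594, 0.627 and 0.599 in control and 0.598, 0.600 and 0.596 in DMM libraries. Col6a3 stood at 0.075, 0.083 and 0.0989 of Col6a1 in control and at 0.0964, 0.117 and 0.142 in DMM libraries at 4 weeks, which overlapped (log2 difference 0.46, exact permutation p = 0.2). In 10 ratios compared over both time points, the smallest exact p was 0.1, reached by Col6a2 to Col6a1 at 4 weeks with a log2 difference of -0.10.

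The likeness of the genes over libraries is a description, since the 12 libraries share limbs, weeks and dissection. The log2 levels of Col6a1 and Col6a2 had a Pearson r of 1, and those of Col6a1 and Col6a3 one of 0.88. Of 9122 genes with a mean of at least 10 CPM outside the 9 collagens, those most like Col6a1 were Tnxb, which encodes the matrix protein tenascin-X (r = 0.971), the collagen gene Col16a1 (0.957) and Lpin3 (0.944). Col15a1 was most like Kctd11 (0.953), Hr (0.95) and Nsmf (0.941), and Col18a1 most like Col5a3 (0.924), Crispld2 (0.885) and Tnn (0.874), the gene of the matrix protein tenascin-W. For Col4a1 the values were lower, with Dlx3 (0.810) first, followed by Zfp664 (0.806) and Pcdh7 (0.799), and for Col8a1 lower again, with Dnajc13 (0.772), Birc6 (0.745) and Otud4 (0.712). Between Col6a1 and Col8a1, r was 0.05.

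Other genes of the pericellular matrix and basement membrane were read as 5 lists, none of whose members passed an edgeR adjusted p of 0.05 at either time point with all libraries. With 1 library left out, Lum passed at 4 weeks without control replicate 3 (edgeR adjusted p = 0.0276, when 0.553% of all transcripts did). At 12 weeks Lum and Antxr1 passed without control replicate 2 (edgeR adjusted p = 0.0394 and 0.0401), when 4.04% of all transcripts did, and without DMM replicate 3 (0.0129 and 0.0197), when 0.481% did, and Smoc1, P4ha2 and Crtap, all higher, and Nid1, lower, passed without control replicate 2 alone. Of 8 partners of collagen VI, 6 were higher in DMM without overlap at 12 weeks, against 9.92% of all genes, and 4 were higher and 1 lower at 4 weeks, against 10.8% and 10.3%, and the median was 0.91 and 0.67 on the log2 scale. The clearest were the small leucine-rich proteoglycans that bind collagen: lumican (Lum) had log2 fold changes of 2.27 (SE 0.38, edgeR adjusted p = 0.180) at 4 weeks and 1.68 (SE 0.27, edgeR adjusted p = 0.0864) at 12 weeks, and fibromodulin (Fmod) 1.35 and 2.06 (SE 0.43 and 0.36). Biglycan (Bgn), which links collagen VI to matrilins, was 0.78 (SE 0.25) at 4 weeks, and matrilin-4 (Matn4) 1.87 (SE 0.40) at 12 weeks. At 4 weeks the other matrilins of the list were below 0, with matrilin-1 (Matn1) at -1.24 (SE 0.40), without overlap, and matrilin-3 (Matn3) at -2.98 (SE 1.08), with overlap. The Matn3 value rested on control replicate 3: the controls were at 1.38, 2.05 and 25.6 CPM and the DMM libraries at 0.728, 1.22 and 1.80 CPM, and without that library the log2 fold change was -0.47 (SE 0.42).

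Of 19 basement membrane partners (laminins, nidogens, perlecan and others), 18 were tested. At 4 weeks 10 were above 0, against 47.5% of all transcripts, with 4 higher and 1 lower without overlap, against 10.8% and 10.3% of all genes. At 12 weeks 15 were above 0, against 51.5%, with 5 higher without overlap, against 9.92%, and a median of 0.51 on the log2 scale. At 4 weeks the lowest unadjusted p belonged to laminin chains, with log2 fold changes of 0.75 (SE 0.18) for Lama4, 0.89 (SE 0.23) for Lamb1 and -1.66 (SE 0.52) for Lamb3. At 12 weeks the laminin chain Lama2 was at 1.16 (SE 0.40) and perlecan (Hspg2) at 0.85 (SE 0.31). The minor chains of collagens IV and VI were scarce, with all 7 summing to between 4.58 and 13.5 CPM, and none of the 6 tested at 4 weeks or of the 4 tested at 12 weeks had an unadjusted p under 0.05, against 13.7% and 16.3% of all transcripts. Their lowest unadjusted p belonged to Col4a4 (-0.98, SE 0.57), Col4a6 (-0.68, SE 0.47) and Col6a6 (1.16, SE 0.82) at 4 weeks and to Col4a3 (0.28, SE 0.22), Col4a4 (0.55, SE 0.47) and Col4a6 (0.64, SE 0.75) at 12 weeks.

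Among 10 receptors of these collagens in the table, Antxr1, a receptor that binds collagen VI, had the lowest unadjusted p at both time points. The median of the 10 was 0.39 on the log2 scale at 4 weeks, with 7 above 0 and 4 higher without overlap, and 0.51 at 12 weeks, with 8 above 0 and 3 higher without overlap, against 10.8% and 9.92% of all genes, and none was lower without overlap. Antxr1 was at 12.8, 17.0 and 9.55 CPM in control and at 34.8, 37.3 and 66.0 CPM in DMM libraries at 4 weeks, and at 8.53, 7.07 and 9.24 against 25, 25.2 and 15.3 CPM at 12 weeks. Its log2 fold changes were 1.81 (SE 0.31, edgeR adjusted p = 0.180) and 1.41 (SE 0.23, edgeR adjusted p = 0.0864), with no overlap at either. The collagen receptor kinase Ddr2 was at 0.90 (SE 0.24) and 0.63 (SE 0.21), the integrin chain Itgb1 at 0.58 (SE 0.23) and 0.04 (SE 0.15), and Cspg4, the NG2 proteoglycan that binds collagen VI, at -0.20 (SE 0.36) and 0.60 (SE 0.16), at 4 and 12 weeks. The estimates below 0 were those of Ddr1 (-0.65, SE 0.40), Mrc2 (-0.33, SE 0.30) and Cspg4 at 4 weeks and of Itga1 (-0.42, SE 0.24) and Antxr2 (-0.19, SE 0.20) at 12 weeks.

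The 12 enzymes and chaperones of collagen assembly stood at a median of -0.06 on the log2 scale at 4 weeks and 0.53 at 12 weeks, when all 12 were above 0. The prolyl hydroxylase P4ha3 was at 1.18 (SE 0.56) and 1.93 (SE 0.43), the cyclophilin Ppib at 0.49 (SE 0.20) at 4 weeks, and Crtap and P3h1, partners in a prolyl 3-hydroxylase complex, at 0.74 (SE 0.25) and 0.48 (SE 0.18) at 12 weeks. Plod3 at 4 weeks was at -0.38 (SE 0.22). As markers of vessels, which carry basement membranes, the 12 endothelial genes had medians of -0.04 and -0.12, with 4 higher without overlap at 4 weeks, against 10.8% of all genes, and none at 12 weeks, against 9.92%, and their summed level of 201 to 281 CPM in control libraries at 12 weeks overlapped the 201 to 249 CPM of DMM libraries.

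The 9 genes of pericytes and smooth muscle, the other cells of vessel walls, had a median of 0.36 at 4 weeks and 0.01 at 12 weeks. At 4 weeks 4 of them were higher and 1 lower without overlap, against 10.8% and 10.3% of all genes, with Rgs5 at 1.38 (SE 0.30), Acta2 at 1.22 (SE 0.31) and Des, which skeletal muscle also expresses, at -2.78 (SE 0.62), and at 12 weeks none was higher and 1 lower, against 9.92% and 8.43%.

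No gene of the further marker lists passed an edgeR adjusted p of 0.05 at either time point, and the lists are given by their medians and counts. Macrophage genes had a median of 0.75 at 4 weeks and -0.41 at 12 weeks (7 of 7 above 0, then 7 of 7 below, 4 of them without overlap against 8.43% of all genes). The 8 osteoblast and osteocyte genes had a median of 0.29 and 0.50, with 2 and 1 below 0. Of them 3 were higher without overlap at 4 weeks and 5 at 12 weeks, against 10.8% and 9.92% of all genes. Their summed level was 3860 to 6420 CPM in control and 7440 to 8590 CPM in DMM libraries at 4 weeks. At 12 weeks it was 2670 to 4120 against 4980 to 6920 CPM. The 14 chondrocyte genes had a median of -0.83 at 4 weeks, with 3 lower without overlap, against 10.3% of all genes, and of 0.52 at 12 weeks, when all 14 were above 0. At 12 weeks all 8 erythroid genes and all 8 neutrophil and bone marrow genes were below 0, with medians of -0.32 and -0.51, and 3 of the former were lower without overlap. The 8 adipocyte genes had a median of 0.24 at 4 weeks, and 7 of them were tested at 12 weeks, with 3 above 0 and 4 below. Among fibroblast and synovium markers, the lowest unadjusted p at 4 weeks belonged to Thy1 (1.38, SE 0.32), Pdgfra (1.1, SE 0.26) and Dpt (1.98, SE 0.48), and at 12 weeks to Mfap5 (2.54, SE 0.40, edgeR adjusted p = 0.0807), Col3a1 (2.29, SE 0.41) and Dpt (3.29, SE 0.56). The level of a list was its summed CPM, so its most abundant genes weigh most. Of 8500 CPM of the fibroblast list in control replicate 1 of 12 weeks, Col1a1 held 8090. Of 8320 CPM of the osteoblast list in DMM replicate 1 of 4 weeks, Ibsp held 5695. Of 27100 CPM of the chondrocyte list in control replicate 1 of 4 weeks, Chad held 20750. The correlations below can rest on such genes and do not tell cell types apart. Over the 12 libraries, which share limbs, weeks and dissection, the level of Col6a3 had a Pearson r of 0.92 with the osteoblast list. With the fibroblast list it was 0.22. For Col6a1 these were 0.78 and 0.44, and Col8a2 had an r of 0.86 with the chondrocyte list. Correlations with blood and marrow lists were mostly negative, with an r for the erythroid list of -0.76 for Col6a1, -0.77 for Col15a1 and -0.80 for Col8a2, and for the neutrophil list of -0.79 for Col8a2 and -0.66 for Col6a3, whereas Col8a1 had 0.08 with both.

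Methylation at these genes was high in exons and low at starts. At 12 weeks the control libraries averaged 81.3% ± 0.43 (SD, n = 3) over 277 exonic cytosines and 54.9% ± 1.7 over 358 intronic cytosines, against 4.62% ± 0.42 over the 234 cytosines within 1 kb of a start. Promoter means cover 1 kb on either side of a start, a wider span than the windows printed above. The shared promoter of Col4a1 and Col4a2 averaged 0.503% ± 0.23 in control and 0.540% ± 0.11 in DMM libraries over 55 cytosines, and the limbs overlapped. The upstream start of Col18a1, whose printed window is richer in CpGs, averaged 0.693% ± 0.16 in control libraries over 45 cytosines. Its internal start, whose printed window is poorer, averaged 59.4% ± 0.51 over 7.

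**Figure D3:**
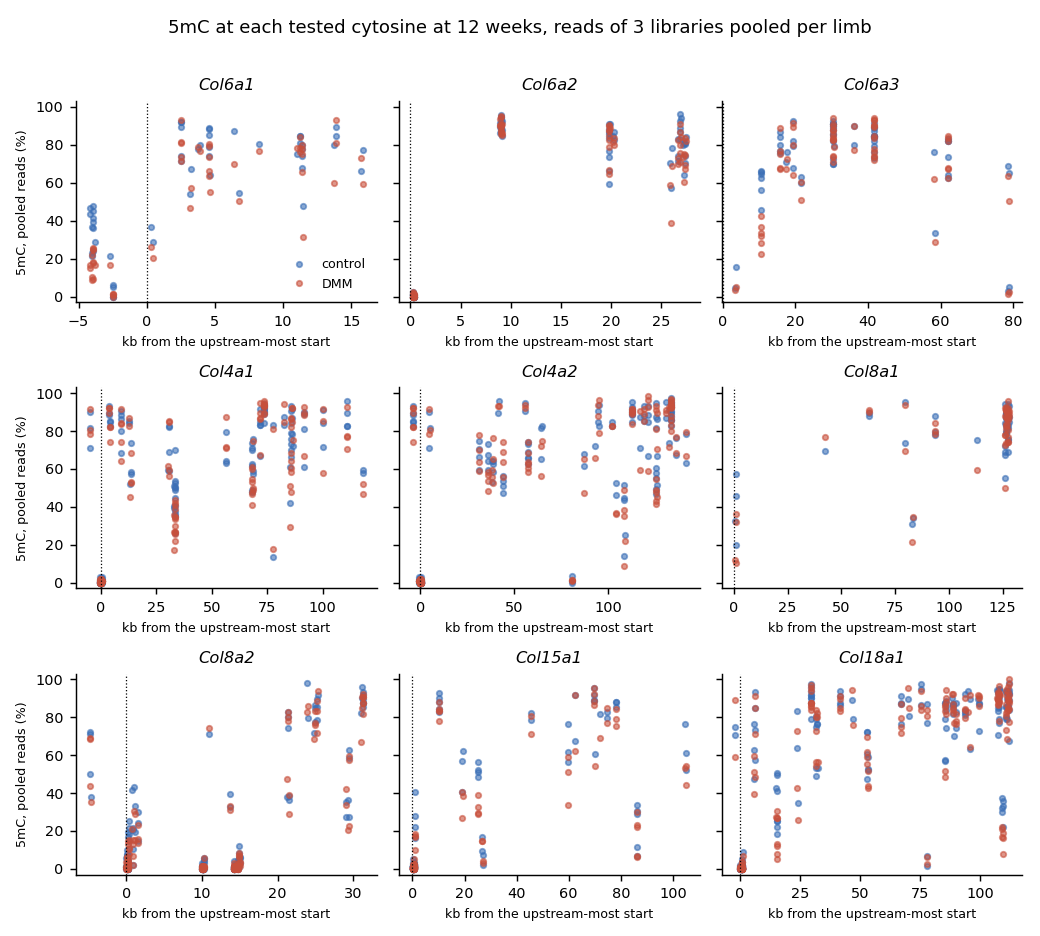
5mC of each tested cytosine at 12 weeks (vertical axis, percent of oxBS reads pooled over 3 libraries per limb) against its distance in kb from the upstream-most annotated start (dotted line), in control (blue) and DMM (red) limbs. Low values sit at the starts of Col4a1, Col4a2, Col6a2, Col8a2, Col15a1 and Col18a1, and Col6a1 shows the DMM points below the control points about 4 kb upstream.

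The 11 promoter windows of these genes held a median of 12 CpGs, against 7 over all 32851 windows of the RefSeq table. The Col4a1 window held 37 CpGs, a number reached by 5.6% of all windows, and those of Col6a1 and Col6a3 held 3 each. Searched on both strands, GGGCGG was found in 7 of the 11 windows and in 35.7% of all windows, CCAAT in 3 of 11 and in 37.4%, and TATAAA in none of the 11 and in 13.6%. Within 1 kb of the start, Col6a3 had no tested cytosine, Col6a1 had 2 and Col8a1 3 or 4, so these 3 starts were hardly seen by the assay.

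For each cytosine, reads were pooled over the 3 libraries of a limb, and a called cytosine differed by 25 points or more with a q under 0.05. At 4 weeks 1 of the 995 cytosines was called, against 0.000554% of all cytosines and 0.000208% called as higher. An unadjusted p under 0.05 was found at 96, against 8.02% of all cytosines. The libraries did not overlap at 56 that were lower and 39 that were higher in DMM limbs, against 3.74% and 2.39% of all cytosines. The called position was the Col4a1 intronic cytosine printed above, on the minus strand at chr8:11283489, with 48.9% 5mC in control limbs (95% Wilson interval 40.8 to 57.1, 139 reads) and 77.6% in DMM limbs (69.8 to 83.8, 134 reads). The control libraries were at 32.4, 58.0 and 41.7% and the DMM libraries at 73.6, 75.0 and 85.7%, without overlap. Without control replicate 1, control replicate 3 or DMM replicate 3 no cytosine of these genes was called, and without control replicate 2 there were 9 calls among 995, when 0.21% of all cytosines were called. At 12 weeks the Col4a1 position was not covered in all libraries. Intervals here cover counting error only.

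At 12 weeks 6 of 915 cytosines were called, all lower in DMM limbs, against 0.227% of all cytosines and 0.200% called as lower. At any size of difference, 29 of 915 had a q under 0.05, against 1.11% of all cytosines, and 1 of 995 had at 4 weeks, against 0.0186%. An unadjusted p under 0.05 was found at 143, against 9.43%, and the libraries did not overlap at 95 that were lower and 28 that were higher, against 5.57% and 2.54%. Without control replicate 2 there were 11 calls, without DMM replicate 2 there were 12 and without DMM replicate 3 there were 11, when 0.409%, 0.34% and 0.322% of all cytosines were called. The 6 calls lay at 3 genes, with 3 in the Col6a3 intron, 2 upstream of Col6a1 and 1 in a Col15a1 intron. Neighbouring cytosines can share reads, so the 6 calls, at 3 genes, are not separate observations. With a coverage of at least 20 reads in each library, 4 of 656 were called, against 0.161% of all cytosines, and the Col6a1 pair, with 13 reads in control replicate 2, was not among those tested. With library means weighted equally 5 were called, against 0.212%, and the Col15a1 difference was -22.7 points. When the test allowed for spread between libraries beyond counting error, no cytosine of these genes or of any other (0%) was called at either time point.

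The Col6a3 region spanned 111 bp, 10.5 to 10.6 kb inside the gene, and met the rule for a region at 12 weeks, with 6 cytosines and a mean pooled difference of -27.5 points. The mean 5mC of its 6 cytosines was 60.5, 54.2 and 64.0% in the control libraries and 30.7, 34.1 and 34.1% in the DMM libraries. At the second CpG, chr1:90833361, pooled 5mC was 62.4% (95% Wilson interval 53.9 to 70.2, 133 reads) in control and 28.2% (22.7 to 34.5, 220 reads) in DMM limbs, a difference of -34.2 points. The limbs did not overlap at any of the 6 cytosines. The region was chosen by these same values, and neighbouring cytosines can share reads. The lack of overlap and the intervals are therefore not separate evidence. Without control replicate 1 or without DMM replicate 2, these genes held 2 regions, when 0.26% and 0.34% of all cytosines were called, against 0.227% with all libraries. The number of regions over the whole genome in these 2 fits is not given here. Over the whole genome the rule gave 323 regions at 12 weeks, 288 of them lower in DMM, and none at 4 weeks.

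**Figure D4:**
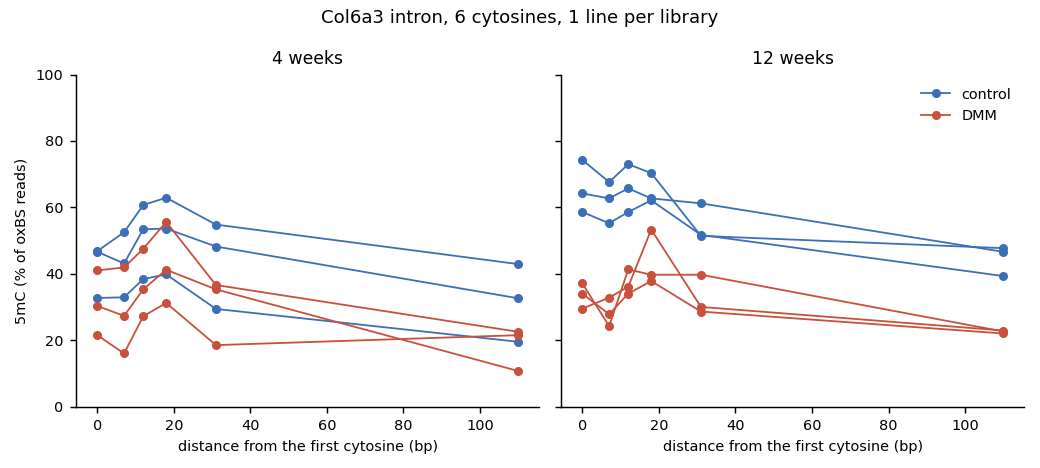
5mC (vertical axis, percent of oxBS reads) at the 6 cytosines of the Col6a3 intron region against distance in bp from the first, at 4 weeks (left) and 12 weeks (right), with 1 line per control (blue) or DMM (red) library. At 12 weeks the control and DMM lines were apart at every cytosine, and at 4 weeks they overlapped.

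The same stretch at 4 weeks comes from other mice and was not used to choose it. There the means were 53.4, 32.1 and 46.2% in control and 40.9, 30 and 22.7% in DMM libraries. They overlapped, with a difference of -12.7 points between library means (exact permutation p = 0.2, n = 3 against 3), while the mean pooled difference, the quantity that was -27.5 points at 12 weeks, was -4.3 points. The BS aliquots read 5mC and 5hmC together. The BS table of DMM replicate 1 of 12 weeks carries another replicate number in its own name than in its label, which was followed here, so its match to the oxBS library is uncertain wherever BS values of that library enter. In these aliquots the stretch at 12 weeks stood at 61.3, 53.4 and 61.4% in control and 52.9, 37.5 and 36.1% in DMM libraries, without overlap. The difference between library means was -16.5 points there, against -26.6 in the oxBS aliquots, and DMM replicate 1, the library of uncertain match, was the highest of the DMM libraries.

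Upstream of Col6a1, the called pair lay 4.14 and 4.17 kb before the start, at chr10:76730181 and chr10:76730213 on the minus strand. Averaged over the pair, the control libraries at 12 weeks were at 46.3, 34.6 and 47.1% 5mC and the DMM libraries at 12.6, 16.7 and 19.2%. Coverage here was low, from 13 to 62 reads per library and cytosine. Of the 17 upstream cytosines tested at 12 weeks, 15 had lower pooled 5mC in DMM limbs, with differences from -30 to 1.1 points. The share of all cytosines with lower pooled 5mC was not computed. A q under 0.05 was found at 5 of the 17, against 1.11% of all cytosines, and these 5 include the called pair. The stretch was singled out for that pair, and neighbouring cytosines can share reads, so these counts are not separate evidence. At 4 weeks the pair was at 33.8, 21.3 and 24.3% in control and 18.3, 21.2 and 18.2% in DMM libraries, which did not overlap by a small margin (difference -7.2 points between library means and -5.8 points in pooled reads, exact permutation p = 0.1, the smallest that 3 against 3 can give). In the BS aliquots at 12 weeks the pair was at 30.4, 33.3 and 52.3% in control and 23.0, 23.5 and 30.5% in DMM libraries. The limbs overlapped, with a difference of -13.0 points. The control mean was 38.7% ± 12 in the BS and 42.7% ± 7 in the oxBS aliquots (SD, n = 3), although BS reads 5mC plus 5hmC. In DMM limbs it was 25.7% ± 4.2 and 16.2% ± 3.3. A BS mean below the oxBS mean cannot be a true level, so 5hmC cannot be read from these values.

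The Col15a1 cytosine, chr4:47267562 on the plus strand, was at 75.4, 78.6 and 75.8% 5mC in control and at 44.8, 51.6 and 65.1% in DMM libraries at 12 weeks. At 4 weeks it was at 78.6, 37.6 and 37.8% in control and 54.7, 33.3 and 38.8% in DMM libraries, and the limbs overlapped. Pooled reads gave 47.1% and 46.9%, a difference of -0.2 points, while the difference between library means was -9.0 points (exact permutation p = 0.7, n = 3 against 3), with control replicate 1 far above the other control libraries. In the BS aliquots of 12 weeks it was at 77.2, 60.0 and 65.8% in control and 76.5, 71.4 and 55.8% in DMM libraries, which overlapped. The BS means were 67.7% ± 8.7 and 67.9% ± 11 (SD, n = 3), and DMM replicate 1 was again the highest DMM library. In the oxBS aliquots the means were 76.6% ± 1.7 in control and 53.8% ± 10 in DMM limbs. BS reads 5mC plus 5hmC, so a control BS mean below the oxBS mean cannot be a true level. 5hmC can therefore not be read from these values.

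Averaged over all tested cytosines of a gene and its flanks, 5mC at 12 weeks was lower in DMM limbs at all 9 loci, and the libraries did not overlap at 7 of them, against 26.5% of all genes that were lower without overlap at this time point. The median difference of all genes was -0.42 points. At 4 weeks 8 of the 9 loci were lower in the mean and none was without overlap, against 6.29% of all genes that were lower and 2.18% that were higher. None was higher without overlap at 12 weeks, against 4.26%. Without control replicate 2 or without DMM replicate 1 of 4 weeks, 5 of the 9 loci were lower without overlap, when 35.6% and 22.5% of all genes were. Without control replicate 3 or DMM replicate 3, 1 locus was, when 10.4% and 10.1% of all genes were. With 3 libraries per limb, the smallest exact p for each locus is 0.1.

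**Figure D5:**
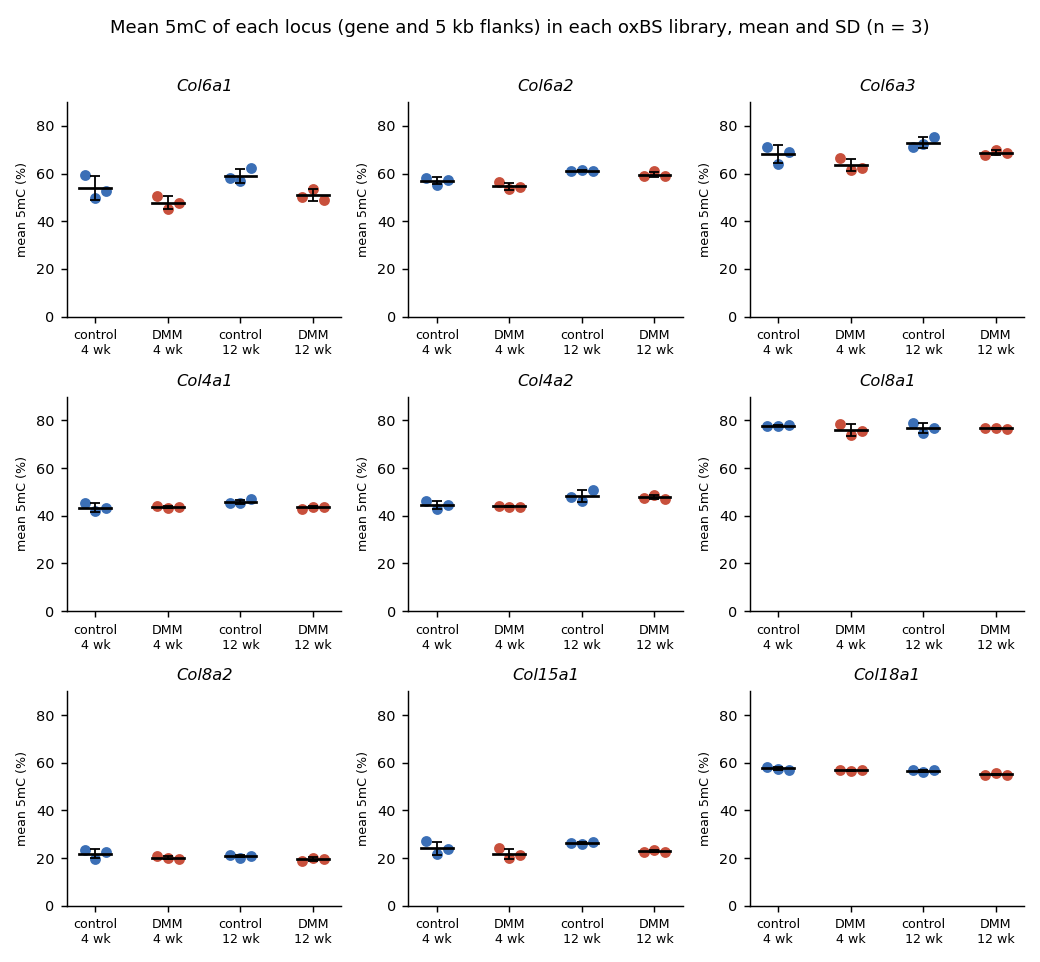
Mean 5mC of each locus (vertical axis, percent, from 0), averaged over the tested cytosines of the gene and 5 kb on either side, in each oxBS library, with the mean (horizontal line) and SD (n = 3). Control and DMM libraries at 12 weeks did not overlap at 7 loci, and the shift was widest at Col6a1.

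The widest shift was that of Col6a1, whose 51 cytosines averaged 58.1, 56.7 and 62.2% 5mC in control and 50.1, 53.7 and 49.0% in DMM libraries at 12 weeks, a difference of -8.07 points. Col6a3 was at 71.2, 72.5 and 75.4% against 67.7, 69.8 and 68.6% (-4.32 points), and Col15a1 at 26.1, 25.9 and 26.8% against 22.6, 23.3 and 22.7% (-3.40 points). Col4a1 differed by -2.37 points, Col6a2 by -1.62, Col18a1 by -1.51 and Col8a2 by -1.28, all without overlap. The libraries of Col4a2 (-0.56 points) and Col8a1 (-0.11 points) overlapped. The means of Col6a1, Col6a3 and Col15a1 include the called cytosines described above and partly restate them. Over the single cytosines of these loci, the median pooled difference was -8.5 points at Col6a1, -1.6 at Col6a3 and -1.0 at Col15a1. With reads pooled over the cytosines of a locus, 4 of the 9 loci were lower without overlap instead of 7, and 15% of all genes were.

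By position, the 358 intronic cytosines of the 9 loci averaged 54.9% ± 1.7 in control and 51.3% ± 0.53 in DMM limbs at 12 weeks (-3.55 points). The 23 upstream cytosines averaged 36.5% ± 4.4 and 27.0% ± 4.5 (-9.53 points), and both classes were without overlap. Of these 23, 17 were the Col6a1 cytosines described above, so this mean largely restates that stretch. At 4 weeks the 20 upstream cytosines, 13 of them at Col6a1, differed by -6.14 points, also without overlap. No share over all genes was computed for these classes. At 12 weeks the exonic cytosines differed by -1.09 points and overlapped. Promoter means were small in both limbs but did not overlap at Col8a2, with 6.46% ± 0.62 in control and 4.36% ± 0.54 in DMM limbs over 43 cytosines, and at Col15a1, with 1.81% ± 0.33 and 1.23% ± 0.12 over 61. Of all promoters with at least 10 cytosines, 12.9% were lower without overlap at 12 weeks and 6.05% at 4 weeks, when none of these genes was. The Col8a1 promoter was lower as well, by -13.99 points, on 4 cytosines.

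5hmC was estimated as the BS percentage minus the oxBS percentage, averaged over the cytosines of a locus. The collagen VI genes carried the most in control limbs at 4 weeks, with 9.68% ± 2.38 at Col6a3 and 8.91% ± 2.42 at Col6a2. At Col6a1 the control libraries of 4 weeks were at 2.40, 7.78 and 5.93% and the DMM libraries at 8.10, 11.14 and 9.35%, the only locus of the 9 without overlap at this time point, against 6.65% of all genes that were higher without overlap. Without control replicate 2 there were 5 such loci and without DMM replicate 1 there were 4, when 23.5% and 17% of all genes were higher without overlap. At 12 weeks Col15a1 was at 0.71% ± 0.89 in control and 2.83% ± 0.42 in DMM limbs, and Col18a1 at 1.47% ± 0.81 and 3.37% ± 0.34, and both were without overlap, against 11.7% of all genes. Without control replicate 1 or control replicate 2 there were 4 such loci, when 19.3% and 21% of all genes were higher without overlap, and without DMM replicate 2 or DMM replicate 3 there were 3, when 21.8% and 18.6% were. Without DMM replicate 1, whose BS and oxBS libraries may not match, Col15a1 and Col18a1 were still higher without overlap, by 1.88 and 2.05 points, when 16% of all genes were. Because 5hmC is the difference of a pair of libraries, a low oxBS value in a library raises its 5hmC estimate, and the 5mC and 5hmC results of a locus are not independent.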

How the data were processed

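RNA was measured in 12 libraries and DNA methylation in 12 oxBS and 12 BS libraries. The authors prepared RNA libraries from poly(A) RNA or, in their methods, with the SMART-Seq v4 kit, trimmed reads with FLEXBAR, mapped them with STAR to mm10 and deposited raw counts per RefSeq transcript from featureCounts. CASAVA 2.17 is named in the submitters' processing notes. For methylation, the authors digested DNA with MspI, trimmed reads with CUTADAPT and called cytosines with Bismark. The deposited tables give the percent methylation and the read coverage of each cytosine, none under 10 reads, and 0.284 to 0.742% of calls on the mitochondrial genome read as C.

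Symbols came from RefSeq for 29476 transcripts and from the study's table for 17, and 555 had none. Counts were filtered by edgeR's filterByExpr, scaled by TMM and tested with the quasi-likelihood test (edgeR 4.0.16, R 4.3.3) with Benjamini-Hochberg adjustment, with separate fits for each time point. DESeq2 1.42.0 was an alternative. Methylated reads were rebuilt from percent and coverage, pooled per limb and compared by a likelihood ratio test with Benjamini-Hochberg q over all cytosines covered by at least 10 reads in all 6 libraries. A region held at least 3 cytosines with gaps of at most 100 bp, 1 of them called with a q under 0.01. Its cytosines had to differ by 20 points or more on average. Locus means weighted cytosines equally and were compared by exact permutation tests (scipy 1.17.1). In simulated data edgeR recovered 132 of 196 transcripts changed by 1.5 on the log2 scale at 4 weeks and 144 of 197 at 12 weeks, and the cytosine test 197 of 200 and 191 of 200 cytosines changed by 40 points. The collagen genes, the gene lists and the tests were chosen with earlier results of these data known. In the lists of partner genes and of fibroblast markers, the genes named are the 3 with the lowest unadjusted p per time point, except 1 that is not reported here, and the genes most alike are the 3 with the highest Pearson r. The rule was not carried through for the other marker lists. Their genes, Pi16, Col1a1, Smoc1, P4ha2, Nid1, Matn1, Matn3 and the receptors below 0 were named after their values were seen. No pair of RNA libraries of a group agreed within sampling noise.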

Additional observations from a re-analysis of the deposited data

How the results depend on the processing

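Of the alternatives, DESeq2 called 1 of the 9 genes at 4 weeks (Col6a3) and 3 at 12 weeks, and it called 747 and 861 transcripts in all where edgeR called 16 and 1. Over the fits that each left out 1 library, 0 genes were called at 4 weeks and in the interaction, 0 to 1 at 12 weeks and 0 to 1 between control limbs. The fits that called the 1 gene called 860 and 102 transcripts in all at 12 weeks and 3926 between control limbs. Signs turned only in estimates that were not called. Col4a1 at 4 weeks was -0.00 without a filter on low counts and -0.00 with 1 transcript per gene, and -0.14 to 0.18 without 1 library. Without 1 library, Col15a1 at 4 weeks ranged from -0.29 to 0.43 and Col8a1 at 12 weeks from -0.06 to 0.20. Between control limbs Col4a1 ranged from -0.33 to 0.02, Col8a1 from -0.15 to 0.01, Col15a1 from -0.32 to 0.39 and Col18a1 from -0.01 to 0.49, and in the interaction Col8a1 ranged from -0.13 to 0.12 and Col18a1 from -0.49 to 0.10. The cause was not tested.

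Replicate numbers were not taken to pair the libraries: deviations of same-numbered RNA libraries correlated at 0.37, -0.51 and 0.12 at 4 weeks and at -0.70, 0.50 and -0.24 at 12 weeks, and those of oxBS libraries at 0.26, 0.21 and 0.00 and at -0.05, -0.04 and 0.04. With the replicate block, 4 genes were called at 12 weeks (Col6a1, Col6a2, Col6a3 and Col15a1) and 0 at 4 weeks, among 734 and 354 transcripts in all, and 1 cytosine at 4 weeks and 6 at 12 weeks, among 53 and 2695 in all.

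Called cytosines fell to 0 at both time points with an overdispersion correction. They also fell to 0 at 4 weeks when cytosines of very high coverage were left out over the whole genome. All 995 at these genes were still tested then, and 6.93e-05% of all cytosines were called. A difference of 20 points gave 18 at 12 weeks, when 0.674% of all cytosines were called. Without 1 library, called cytosines numbered 0 to 9 at 4 weeks and 5 to 12 at 12 weeks, regions 0 to 1 and 1 to 2, loci lower in 5mC without overlap 0 to 5 and 7 to 8, and loci higher in 5hmC 1 to 5 and 2 to 4. Control replicate 2 of 4 weeks gave the highest of these at 4 weeks when left out, with 9 cytosines, 1 region and 5 loci. Gene bodies without flanks gave 1 locus at 4 weeks, when 6.47% of all genes were lower without overlap, and pooled reads 4 at 12 weeks, when 15% were. An alternative chosen after seeing the data left out control replicate 2 and DMM replicate 1 of 12 weeks and gave 6 cytosines, 1 region and 8 loci, when 0.102% of all cytosines were called and 41.6% of all genes were lower without overlap. A coverage of at least 20 reads gave 4 called cytosines at 12 weeks and equally weighted library means 5. Precision was limited by 3 libraries per limb and, for methylation, by coverage.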
